A study of Homo sapiens with 6 samples.

Results

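The hairpins described here were directed against 14 genes whose products act on messenger RNA after transcription: DDX3X, DDX6, EIF4A1, EIF4A2, DHX29, DHX9, DDX1, DHX36, DHX30, DHX57, DDX19A, DDX19B, DDX20 and FMR1. They were taken by the gene symbol given to each hairpin in the count files, which found 112 hairpins, 8 per gene, among the 7293 hairpins and 912 genes seen in the pool. The screen was done in SKK-1 cells, an established line that came from a human acute myeloid leukemia, and asked which knockdowns change the response to azacitidine (AZA), a cytidine analogue that enters RNA and DNA. Each of 3 cultures was transduced separately with a lentiviral pool of short hairpin RNAs, selected with puromycin and divided, so that both groups carried the pool and had been selected alike. The AZA group (n = 3 libraries) received 0.25 µM AZA every 2 days, the untreated group (n = 3) received none, and genomic DNA was taken on day 14. Hairpin sequences were read from this DNA after PCR, and a count stands for the share of cells that carried a hairpin at harvest. Neither target mRNA levels nor a library of the starting pool were analysed here, so no value below is a degree of knockdown or a change over time.

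Most of these proteins are DEAD-box or DEAH-box helicases, enzymes that use ATP to remodel RNA structures or to strip proteins from RNA. Some open structured leaders so that the small ribosomal subunit can scan them, others release mRNA at the nuclear pore, and DDX6 helps to silence mRNA and to hand it to the decapping machinery in cytoplasmic granules called P-bodies. FMR1 is not a helicase but an RNA-binding protein that associates with polyribosomes and restrains translation.

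A hairpin of this design is cut inside the cell to a guide strand that pairs with its target mRNA, most strictly through guide bases 2 to 8, the seed. The guides against DDX6 and DDX3X are shown because all 16 of their hairpins had a positive fitted fold change. Each is written 5′ to 3′ as designed for the library, with the seed in capitals, and is the reverse complement of its target.
DDX6.1340: tATAGAAGcaagaataacccag
DDX6.1453: tTGTATATcaatacctcgggta
DDX6.2063: tTTGAAATcattgacaagcttg
DDX6.3440: tTGACTGTaaagcatctgccag
DDX6.3453: tAAAGCAAcactattgactgta
DDX6.3959: tTAGTAACcaacattgactgga
DDX6.4951: tTATCAAGcacaaagcacgtgg
DDX6.71: tAACTTGCtctcttgcacggaa
DDX3X.1204: tTGACCAAtcatcttcatctga
DDX3X.1280: tATTTCTCaaaattaatcccag
DDX3X.2073: tTTGTCTGattcttccacccaa
DDX3X.2608: tACTTTGTcggtagtctctggc
DDX3X.3511: tTAACTTTgaaaacagtgcttt
DDX3X.3963: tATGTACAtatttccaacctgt
DDX3X.3990: tAGAGCAGaattgacaccttgt
DDX3X.88: tTGAATATagagtgctccggac
The 8 guides of each gene have 8 different seeds. DDX6.3440 and DDX6.3453 share 9 bases of their targets. DDX6 lies on the minus strand at chr11:118747763-118791164 and DDX3X on the plus strand at chrX:41333348-41364472 (GRCh38, GENCODE release 44). Of the DDX6 guides, 2 match coding sequence, 5 the 3′ UTR and 1 the 5′ UTR. Of the DDX3X guides, 4 match coding sequence, 3 the 3′ UTR and 1 the 5′ UTR, and DDX3X.1280 and DDX3X.2073 also match a transcript of a pseudogene, DDX3P3. The 5′ UTR guide, DDX3X.88, matches 10 DDX3X transcripts but not the one marked as canonical, which the other DDX3X guides match.

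A further guide is shown because its hairpin had 0 counts in all 3 untreated libraries and counts in all 3 AZA libraries.
DHX9.3408: tCTACAAGcacaatctgcccat
It matches the coding sequence of DHX9 in exon 26 at chr1:182883608-182883629 (GRCh38).

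The last set is shown because its guides share 17 or more bases of their targets with another guide, so that these hairpins are not independent of each other.
EIF4A1.413: tTAGATCTaattcaatctgctg
EIF4A1.414: tTTAGATCtaattcaatctgct
EIF4A1.617: tAAGCATAtcaaacacacggcc
EIF4A1.618: tTAAGCATatcaaacacacggc
DDX1.2054: tAACATAAggaacaccgtggat
DDX1.2056: tATAACATaaggaacaccgtgg
DDX1.2057: tTATAACAtaaggaacaccgtg
DDX1.628: tTGACAACaaagaccatctgac
DDX1.629: tTTGACAAcaaagaccatctga
DHX30.350: tAGGCTTTtgaactggagctga
DHX30.355: tTTTGTAGgcttttgaactgga
DHX57.3098: tTAATTCTtagacacagctgtt
DHX57.3099: tTTAATTCttagacacagctgt
DDX19A.935: tTTGATAAcatttgggtctggg
DDX19A.940: tTCAGTTTgataacatttgggt
DDX19A.1250: tTGTTCAAcatcaatgccgcgg
DDX19B.40: tTATCAACaaggttgcttctga
DDX19B.44: tGTGTTATcaacaaggttgctt
DDX19B.620: tTTGATAAcgtttgggtctggg
DDX19B.625: tTCAGTTTgataacgtttgggt
DDX19B.935: tTGTTCAAcatcaatgccgcgg
DDX20.2506: tAAGTCTTgtcttcatctggat
DDX20.2507: tTAAGTCTtgtcttcatctgga
DDX20.2508: tTTAAGTCttgtcttcatctgg
DDX20.650: tGAACAATtaaatcgagcccgc
DDX20.655: tAGCTTGAacaattaaatcgag
With overlapping guides counted once, the 112 hairpins have 98 target sites. DDX19A.1250 and DDX19B.935 have the same sequence, and their counts are equal in all 6 libraries, so 1 set of reads was entered under both genes. DDX19A.935 and DDX19B.620 differ by 1 base, as do DDX19A.940 and DDX19B.625, and the guides of 5 DDX19A or DDX19B hairpins match transcripts of both genes. A guide sequence was found for 103 of the 112 hairpins, and each matched a transcript of its own gene, 84 in coding sequence, 13 in the 3′ UTR, 5 in the 5′ UTR and 1 across the edge of the coding sequence.

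The libraries held 18542022, 20309292 and 22587662 counts (AZA replicates 1, 2 and 3) and 12292575, 18035555 and 19645459 counts (untreated replicates 1, 2 and 3). Values are counts scaled to a library total of 1000000 (CPM). The 112 hairpins took 1.34%, 1.42% and 1.35% of counts in the AZA libraries, against 1.23%, 1.27% and 1.19% in the untreated libraries. These shares did not overlap between groups, but the separation rested on DDX6 and DDX3X. Hairpins of DDX6 summed to 1003, 702 and 572 CPM under AZA, against 273, 186 and 327 CPM without drug. Those of DDX3X summed to 1907, 1706 and 1583 CPM, against 1148, 1130 and 757 CPM. With these 2 genes left out, the shares of the other 12 overlapped, and AZA replicate 1 had the smallest. The median mean level of all 112 hairpins, DDX6 and DDX3X included, was 104 CPM under AZA, against 87.6 CPM without drug. The median over the pool was 112 CPM under AZA and 105 CPM without drug. Replicates were further apart without drug: the median SD of log2 CPM over the 112 hairpins was 0.61 in the AZA group and 1.16 in the untreated group, against 0.56 (AZA) and 0.94 (untreated) over the pool. Hairpins in the lowest 10% of the pool numbered 18 of the 112 (16.1%) under AZA and 20 (17.9%) without drug.

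All 112 hairpins passed the filter on low counts. By edgeR's quasi-likelihood test with p-values adjusted by Benjamini-Hochberg over 7262 hairpins, none of the 112 passed 0.05, and the lowest adjusted p was 0.507. Over the pool 5 hairpins passed, which is 0.0689%. At an unadjusted p under 0.05 there were 5 of the 112 higher and 3 lower under AZA, where 1.9% of the pool were higher and 3.72% lower. Without AZA replicate 1, 2 or 3 these 8 became 1, 4 and 2. Over the pool the shares in either direction were then 3.26%, 3.16% and 3.45%. Without untreated replicate 1, 2 or 3 the 8 became 9, 11 and 9, where the pool had 8.63%, 7.87% and 8.15%. With the cultures as a replicate block there were 12, where the pool had 6.02%. Other tests called more. The DESeq2 Wald test passed DHX9.3408, DHX57.3694 and DDX6.4951 as higher under AZA, where 0.812% of the pool did. The edgeR exact test and likelihood-ratio test passed DHX9.3408 alone, where 0.124% and 0.138% of the pool passed as higher. DHX9.3408 had 0 counts in every untreated library and passed the filter through its AZA libraries alone, so its direction was fixed beforehand.

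By direction, 59 of the 112 fitted fold changes (52.7%) were positive, that is higher under AZA, with a median log2 fold change of 0.13, beside 45.1% and a median of -0.10 over the pool. All 16 hairpins of DDX6 and DDX3X were among the 59. Of the 96 hairpins against the other 12 genes 43 (44.8%) were positive, with a median of -0.14, close to the pool. Scaling by library totals in place of TMM moved the median of the 112 to 0.30 and that of the pool to 0.07, with 58.9% of the 112 and 53.8% of the pool positive. With the cultures as a replicate block the medians were 0.23 for the 112 and 0.08 for the pool, with 58.9% and 53.9% positive. Without AZA replicate 1, 2 or 3 the median of the 112 was 0.05, -0.01 and 0.05. A gene with every tested hairpin positive was rare, since DDX6 and DDX3X were 2 of 8 such genes among the 912. In 15 hairpins (13.4%) all 3 AZA libraries lay above all 3 untreated libraries in CPM, where 9.13% of the pool did, and 7 of the 15 were against DDX6 or DDX3X. In 3 hairpins (2.68%) all 3 AZA libraries lay below, where 4.29% of the pool did. Overlap of groups is judged throughout on CPM by library totals, while fitted fold changes use TMM.

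On counts summed over the 8 hairpins of a gene, DDX6 alone of the 14 genes passed the unpaired test, and it rose under AZA. The same test passed 11 of 912 genes (1.21%), 9 of them higher (0.987%). With the cultures as a replicate block DDX3X passed too, where 1.32% of genes passed as higher. DDX6, DDX3X and DDX19B were the genes whose summed CPM was higher in all 3 AZA libraries than in all 3 untreated libraries, where 10.9% of all genes were, and DDX19A was the one that was lower, where 7.68% were. Fitted sums were higher for 9 of the 14 genes and lower for 5.

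DDX6, the DEAD-box ATPase of P-bodies, was scarce without drug. Its 8 hairpins summed to 1003, 702 and 572 CPM in the AZA libraries, against 273, 186 and 327 CPM in the untreated libraries. Under AZA the mean sum ranked 185th from the bottom of the 912 genes, and in untreated cells it was the lowest of all, ranking 5th, 2nd and 14th from the bottom in the single libraries. That low rank and the fold change share the untreated counts. The summed count rose by a log2 fold change of 1.52 ± 0.34 (SE), or 2.86-fold (edgeR quasi-likelihood test, adjusted p = 0.0292 over 912 genes). The most abundant DDX6 hairpin held 18.2% of the gene's counts under AZA and 27.1% without drug, and without it the log2 fold change was 1.66.

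The difference was spread over the DDX6 hairpins. DDX6.4951, at chr11:118748856-118748877 in the 3′ UTR, had 225, 76.8 and 47.6 CPM under AZA, against 14.4, 2.27 and 18.5 CPM without drug. DDX6.3440, also in the 3′ UTR, had 84.0, 87.3 and 127 CPM under AZA, against 22.3, 19.1 and 3.21 CPM without drug. The groups lay apart for both, with log2 fold changes of 3.16 ± 1.13 and 2.58 ± 1.07 (SE). DDX6.1340 in coding sequence had 49.2, 185 and 57.7 CPM under AZA, against 16.6, 17.02 and 36.4 CPM without drug. DDX6.3453, whose target overlaps that of DDX6.3440, had 119, 169 and 92.8 CPM under AZA, against 18.1, 24.8 and 70.0 CPM without drug. These too did not overlap, with log2 fold changes of 1.9 and 1.59.

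The other 4 DDX6 hairpins overlapped between the groups. DDX6.71, against the 5′ UTR, had 80.3, 37.0 and 76.6 CPM under AZA, against 56.5, 0 and 6.72 CPM without drug. DDX6.1453 had 249, 49.4 and 120 CPM under AZA, against 124, 21.7 and 83.4 CPM without drug, so each culture was higher in its AZA arm. DDX6.2063 had 50.9, 61.8 and 21.0 CPM under AZA, against 19.7, 50.0 and 17.5 CPM without drug, again higher in each culture. DDX6.3959 had 147, 36.4 and 29.3 CPM under AZA, against 1.95, 50.5 and 90.9 CPM without drug. Here the first culture differed in 1 direction and the other two in the opposite one. Averaged over the 8 hairpins, log2 CPM was higher in the AZA arm of the cultures by 2.27, 2.68 and 1.13 (cultures 1, 2 and 3).

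The DDX6 call was lost without some of the libraries, while its log2 fold change stayed positive. Leaving out AZA replicate 1, 2 or 3 gave 1.26, 1.57 and 1.68, with adjusted p-values of 0.238, 0.101 and 0.0656 by the same edgeR test. These fits passed 7, 7 and 5 of all 912 genes, against 11 with every library. Leaving out untreated replicate 2 gave 1.32 (adjusted p = 0.0694, edgeR), where 13 genes passed. Limma on the mean log2 CPM of the hairpins gave 2.02 (adjusted p = 0.070), where 1.43% of genes passed as higher.

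DDX3X, a DEAD-box helicase that helps ribosomes through structured mRNA leaders, was the gene nearest to the threshold. Its 8 hairpins summed to 1907, 1706 and 1583 CPM under AZA, against 1148, 1130 and 757 CPM without drug. All AZA libraries lay above all untreated libraries, and the gene's mean sum was at percentile 94.1 of the 912 genes under AZA and at percentile 48.7 without drug. The log2 fold change of the sum was 0.75 ± 0.19 (SE), or 1.69-fold, with an adjusted p of 0.052 by the edgeR quasi-likelihood test, just outside the threshold. With the cultures as a replicate block it passed at 0.77 ± 0.17 (adjusted p = 0.0244, edgeR), where 1.32% of genes passed as higher, and limma on the mean log2 CPM also passed it (adjusted p = 0.015). Leaving out AZA replicate 1, 2 or 3 gave 0.68, 0.76 and 0.81 (adjusted p = 0.285, 0.214 and 0.19, edgeR), where 7, 7 and 5 of the 912 genes passed. Without untreated replicate 3 the value was 0.58 (adjusted p = 0.0943, edgeR), while without untreated replicate 1 or 2 the gene passed (adjusted p = 0.0207 and 0.0395, edgeR). Without untreated replicate 1, 2 or 3 the pool had 16, 13 and 15 genes that passed, against 11 with every library. The sum without its most abundant hairpin gave 0.82 (adjusted p = 0.0619, edgeR). The mean log2 difference over its hairpins was 1.12, 1.12 and 1.06 in the 3 cultures, but the hairpins behind it differed. In culture 2 DDX3X.2608 differed by 6.23, beside 1.44 CPM without drug, and the other hairpins by -0.59 to 1.46. The limma fit used the same means over hairpins.

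The 2 DDX3X hairpins that were scarcest without drug had the largest fold changes, though both values share the untreated counts. DDX3X.3990, at chrX:41348907-41348928 in the 3′ UTR, had 113, 120 and 191 CPM under AZA, against 9.68, 38.0 and 46.3 CPM without drug, a log2 fold change of 2.00 ± 0.84 (SE). DDX3X.2608 in coding sequence had 117, 132 and 94.3 CPM under AZA, against 84.5, 1.44 and 29.1 CPM without drug. DDX3X.88, against the 5′ UTR of transcripts other than the canonical one, also did not overlap in CPM, but by little. It had 182, 117 and 123 CPM under AZA, against 107, 106 and 106 CPM without drug. With TMM its log2 fold change was 0.24 ± 0.58 (SE), and the second culture differed by -0.06. DDX3X.2073 overlapped at 121, 333 and 270 CPM under AZA, against 17.2, 108 and 158 CPM without drug, and was higher in the AZA arm of each culture. The most abundant, DDX3X.1280, had 535, 371 and 410 CPM under AZA, against 457, 303 and 199 CPM without drug, a log2 fold change of 0.30 ± 0.36 (SE). DDX3X.1204 had 377, 154 and 185 CPM under AZA, against 158, 202 and 41.9 CPM without drug, and was lower in the AZA arm of the second culture. The remaining hairpins, DDX3X.3511 and DDX3X.3963, had log2 fold changes of 0.61 and 0.15 and overlapped between groups.

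EIF4A1 and EIF4A2 encode 2 forms of eIF4A, the helicase subunit of the cap-binding complex eIF4F, which unwinds leaders before scanning. Neither passed the test. EIF4A1 hairpins summed to 446, 533 and 675 CPM under AZA, against 418, 864 and 1134 CPM without drug, a log2 fold change of -0.57 ± 0.33 (SE) with an adjusted p of 0.505 (edgeR). The groups overlapped through the first untreated library. Of its 8 hairpins 7 had negative fitted values, where 45.1% of the pool's hairpins had positive ones. How many genes of the pool had as many negative hairpins was not counted. EIF4A1.708 had 49.0, 27.5 and 51.4 CPM under AZA, against 22.2, 217 and 187 CPM without drug, a log2 fold change of -1.92 ± 0.88 (SE). EIF4A1.957 was the most abundant without drug, with 58.7, 36.7 and 121 CPM under AZA, against 177, 12.3 and 348 CPM. Both overlapped between groups, and with limma on the mean log2 CPM the gene's value was 0.03.

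EIF4A2 hairpins summed to 906, 1255 and 1134 CPM under AZA, against 948, 1512 and 911 CPM without drug, with a log2 fold change of -0.06 ± 0.23 (SE) and an adjusted p of 0.928 (edgeR). EIF4A2.1851, its most abundant hairpin, had 198, 231 and 255 CPM under AZA, against 229, 607 and 128 CPM without drug. A single untreated library set that difference, since without untreated replicate 2 the log2 fold change of -0.67 became 0.21.

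DHX29 binds the small ribosomal subunit and assists scanning through structured leaders. Its hairpins summed to 600, 826 and 556 CPM under AZA, against 822, 688 and 647 CPM without drug, a log2 fold change of -0.14 ± 0.27 (SE, adjusted p = 0.867 by edgeR). DHX29.3091 had 41.2, 172 and 82.3 CPM under AZA, against 168, 241 and 191 CPM without drug, and was lower in the AZA arm of each culture, with a log2 fold change of -1.19 ± 0.61 (SE). Its hairpins did not move together, since DHX29.2008 was higher in all 3 AZA libraries, at 31.2, 27.6 and 25.0 CPM, against 6.18, 0 and 4.43 CPM without drug.

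DHX9 unwinds double-stranded RNA and RNA-DNA hybrids in the nucleus and the cytoplasm. Its summed counts were among the lowest of the pool in both groups, 18th of 912 from the bottom under AZA and 12th without drug, and they overlapped at 592, 373 and 416 CPM under AZA, against 323, 545 and 278 CPM without drug. The log2 fold change of the sum was 0.24 ± 0.36 (SE, adjusted p = 0.859 by edgeR). The mean log2 CPM of its hairpins, in which scarce hairpins weigh as much as abundant ones, differed by 2.23 ± 0.68 (SE, adjusted p = 0.105 by limma), with differences of 2.69, 1.04 and 2.96 in cultures 1, 2 and 3. Within these means, differences of 7.89 to 9.45 came from DHX9.3408, DHX9.1127 and DHX9.857 where untreated counts were 0 or 1. All other differences ran from -3.22 to 2.35. DHX9.3408 had 53.4, 30.6 and 49.7 CPM under AZA, against 0, 0 and 0 CPM in the untreated libraries. Against a floor of 3 counts in each untreated library it was at least 237-fold higher under AZA, and its edgeR quasi-likelihood p was 0.000888 before and 0.507 after adjustment over the pool. It passed the filter on low counts through its AZA libraries alone, so a tested value had to be higher under AZA. In the pool 2 hairpins had this pattern of no untreated and some AZA counts in every library, and none had the opposite one.

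The other DHX9 hairpins did not share that pattern. DHX9.1127 had 73.1, 117 and 56.8 CPM under AZA, against 0, 60.0 and 0.0509 CPM without drug, and DHX9.857 had 70.0, 78.9 and 26.8 CPM under AZA, against 97.7, 0 and 0 CPM. In both, untreated libraries at or near 0 stood beside 1 at a level like that under AZA. DHX9.2341, the most abundant without drug, had 41.7, 40.6 and 38.9 CPM under AZA, against 67.0, 144 and 22.04 CPM without drug. Of the 8 hairpins 4 had positive and 4 negative fitted values, and the median log2 fold change was 0.01, against a mean of 0.93 with DHX9.3408 at its bound.

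DHX36 resolves G-quadruplexes in RNA and DNA. Its hairpins summed to 1253, 1324 and 1378 CPM under AZA, against 1343, 913 and 1514 CPM without drug, a log2 fold change of 0.05 ± 0.19 (SE, adjusted p = 0.928 by edgeR). The AZA libraries lay inside the range of the untreated libraries. DHX36.1954 was the most abundant of the 112 hairpins without drug, with 246, 276 and 300 CPM under AZA, against 534, 238 and 474 CPM, a log2 fold change of -0.76 ± 0.36 (SE). DHX36.372 was nearly absent, at 0, 17.5 and 0 CPM under AZA and 0, 3.83 and 0.713 CPM without drug.

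DHX57 is a DEAH-box protein of the same family whose function is less well described. Its hairpins summed to 964, 1114 and 1077 CPM under AZA, against 1035, 829 and 816 CPM without drug, a log2 fold change of 0.21 ± 0.21 (SE, adjusted p = 0.761 by edgeR). DHX57.3694 had 83.5, 146 and 131 CPM under AZA, against 15.6, 1.44 and 2.29 CPM without drug, a log2 fold change of 4.08 ± 1.19 (SE, unadjusted p = 0.00529, adjusted p = 0.667 by edgeR). It stood alone among the hairpins of its gene, whose other fitted values ran no higher than 1.19. DHX57.3489 was lower in all 3 AZA libraries, at 94.0, 85.2 and 95.9 CPM under AZA, against 293, 137 and 108 CPM without drug. DHX57.2662, the most abundant without drug, had 268, 136 and 158 CPM under AZA, against 307, 188 and 109 CPM.

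DHX30 acts in mitochondrial RNA granules and in assembly of the mitochondrial ribosome. Its sums overlapped, at 634, 789 and 695 CPM under AZA, against 681, 718 and 515 CPM without drug, with a log2 fold change of 0.12 ± 0.27 (SE, adjusted p = 0.887 by edgeR). The mean log2 CPM of its hairpins differed by 1.38 ± 0.55 (SE, adjusted p = 0.293 by limma), with differences of 0.32, 1.18 and 2.65 in cultures 1, 2 and 3. Single untreated libraries near 0 weighed in these means. DHX30.280 differed by 7.86 in culture 2, and DHX30.1028 and DHX30.350 by 7.14 and 7.94 in culture 3. Their untreated levels there were 0.555, 0 and 0.102 CPM, where the size depends in part on the prior count. Of its 8 hairpins 7 had positive fitted values, and 3.73% of all genes had 7 or more. DHX30.3440 had 85.7, 51.5 and 76.6 CPM under AZA, against 12.04, 47.6 and 3.87 CPM without drug. DHX30.355 had 86.2, 54.9 and 92.4 CPM under AZA, against 39.3, 13.1 and 23.3 CPM without drug, and neither hairpin overlapped between groups. The exception was the most abundant hairpin, DHX30.2633, with 95.0, 89.8 and 87.8 CPM under AZA, against 60.9, 361 and 270 CPM without drug, a log2 fold change of -1.52 ± 0.64 (SE). It held 12.8% of the gene's counts under AZA and 39.9% without drug, and without it the log2 fold change of the sum was 0.51.

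DDX1 belongs to the complex that ligates tRNA exons after splicing. Its hairpins summed to 731, 717 and 777 CPM under AZA, against 931, 594 and 505 CPM without drug, a log2 fold change of 0.11 ± 0.28 (SE, adjusted p = 0.888 by edgeR). The AZA libraries were close to each other and lay within the untreated range. DDX1.486 had 104, 83.2 and 57.7 CPM under AZA, against 174, 66.1 and 178 CPM without drug. DDX1.2057, the most abundant without drug, had 127, 130 and 160 CPM under AZA, against 368, 81.4 and 72.5 CPM.

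DDX19A and DDX19B are paralogues of the helicase that releases mRNA on the cytoplasmic side of the nuclear pore, and they lie on chromosome 16. Their sums went opposite ways without either passing the test. DDX19A summed to 881, 912 and 841 CPM under AZA, against 988, 1029 and 1253 CPM without drug, a log2 fold change of -0.33 ± 0.21 (SE, adjusted p = 0.541 by edgeR), and DDX19B to 851, 1062 and 845 CPM under AZA, against 694, 711 and 711 CPM without drug, a log2 fold change of 0.36 ± 0.23 (SE, adjusted p = 0.550). For both genes the groups did not overlap. DDX19A.1602, against the 3′ UTR, had 214, 229 and 90.6 CPM under AZA, against 280, 304 and 344 CPM without drug, a log2 fold change of -0.97 ± 0.43 (SE). DDX19A.2373, also against the 3′ UTR, had 19.8, 84.4 and 36.5 CPM under AZA, against 99.3, 90.8 and 118 CPM without drug, and was lower in all AZA libraries too. DDX19B.284 had 223, 325 and 189 CPM under AZA, against 107, 153 and 31.0 CPM without drug, a log2 fold change of 1.17 ± 0.61 (SE). DDX19B.13, whose guide matches both genes, had 166, 174 and 246 CPM under AZA, against 58.1, 172 and 254 CPM without drug. The guide entered under both genes, DDX19A.1250 and DDX19B.935, had 112, 50.5 and 118 CPM under AZA, against 35.2, 43.9 and 218 CPM without drug, with a log2 fold change of -0.25.

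DDX20, also called Gemin3, is the helicase of the SMN complex, which assembles small nuclear ribonucleoproteins. Its hairpins summed to 1154, 1317 and 1212 CPM under AZA, against 931, 1301 and 844 CPM without drug, a log2 fold change of 0.23 ± 0.21 (SE, adjusted p = 0.712 by edgeR). DDX20.655 had 293, 242 and 230 CPM under AZA, against 92.3, 233 and 26.7 CPM without drug, with overlap through untreated replicate 2 alone. DDX20.789, the most abundant without drug, had 312, 331 and 175 CPM under AZA, against 427, 186 and 127 CPM.

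FMR1 hairpins were abundant in both groups, with the mean sum at percentile 90.2 of all genes under AZA and at percentile 90.7 without drug. They summed to 1482, 1582 and 1738 CPM under AZA, against 1746, 1679 and 1656 CPM without drug, a log2 fold change of -0.10 ± 0.16 (SE, adjusted p = 0.859 by edgeR). Fitted values were negative for 7 of the 8, from -1.28 to -0.05, where 45.1% of the pool's hairpins had positive ones. The lowest was that of FMR1.1144, with 45.7, 8.91 and 2.75 CPM under AZA, against 51.5, 34.5 and 38.8 CPM without drug, a log2 fold change of -1.28 ± 1.39 (SE). FMR1.4023 had 246, 280 and 368 CPM under AZA, against 308, 452 and 415 CPM without drug, a log2 fold change of -0.56 ± 0.33 (SE), and was lower in the AZA arm of each culture. FMR1.2648 was the exception, at 96.4, 98.7 and 83.9 CPM under AZA, against 33.0, 44.7 and 73.9 CPM without drug.

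Hairpins whose guides overlap gave a view of how far 2 hairpins against the same bases can differ. Leaving aside the shared DDX19 guide, there were 11 groups of such hairpins, and the highest and lowest log2 fold change within a group differed by 0.03 to 1.54, with a median of 0.75. In 6 groups the hairpins had the same sign and in 5 they did not. DDX1.628 and DDX1.629, shifted by 1 base, had 0.49 and 0.46, while DDX1.2054 and DDX1.2057 had 1.07 and -0.47. DHX57.3098 and DHX57.3099, also shifted by 1 base, had -0.36 and 0.54. The DDX19A and DDX19B hairpins that differ by 1 base were closer, at -0.14 for DDX19A.935 and -0.05 for DDX19B.620, and at -0.73 for DDX19A.940 and -0.81 for DDX19B.625.

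By position of the target, the 13 hairpins against 3′ UTRs had a median log2 fold change of 0.39 and 9 were positive, but 8 of the 13 were against DDX6 or DDX3X, and 1 of the other 5 was positive, with a median of -0.41. The 5 hairpins against 5′ UTRs were positive with a median of 0.50. Of these, 1 was against DDX6, 1 against DDX3X (not on its canonical transcript) and 3 against DHX30, and DHX30.350 and DHX30.355 share most of their target bases. Of the 84 against coding sequence 44 were positive, with a median of 0.07, and without DDX6 and DDX3X these were 38 of 78 and -0.03.

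A list of 20 other genes in the pool, with 160 hairpins, covered mRNA export, decay, surveillance and translation. It also held relatives and partners of FMR1, and SMN1 and SMN2, partners of DDX20. SMN1.1249, SMN1.265 and SMN1.479 had the same counts in all 6 libraries as SMN2.1198, SMN2.265 and SMN2.479, so these values stand under both genes. None of the 20 passed the edgeR test on summed counts, none had an unadjusted p under 0.05, where 1.21% of all genes passed and 11.6% had such a p, and the log2 fold changes ran from -0.39 to 0.43, 7 of them positive. Of their 159 tested hairpins 69 (43.4%) were positive, with a median log2 fold change of -0.14, and none passed the test. FXR2, a relative of FMR1, had 990, 1078 and 1210 CPM under AZA, against 848, 768 and 775 CPM without drug, a log2 fold change of 0.43 ± 0.21 (SE, adjusted p = 0.407 by edgeR). DHX34, a helicase of nonsense-mediated decay, had -0.39 ± 0.22 (SE), and MKRN1, an RNA-binding ubiquitin ligase, -0.36 ± 0.21 (SE), with adjusted p-values of 0.505 and 0.536 by edgeR. These 3 were picked for the smallest p of the 20. Their groups did not overlap, FXR2 lying higher under AZA, where 10.9% of all genes did, and DHX34 and MKRN1 lower, where 7.68% did.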

How the data were processed

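Genomic DNA of SKK-1 cells was analysed in 6 libraries. The authors amplified the hairpin guide strands by PCR, sequenced them and deposited raw counts per hairpin, 1 file per library, each listing the hairpins with at least 1 count. Hairpins that a file did not list were given 0. CASAVA 1.9 and GRCh37 appear in the submitters' processing notes. Of the program that matched reads with hairpins, no name was given in the sources read here. The reads carry no molecular identifiers, so floors (3 counts) cover counting error only. Depth was 18542022 to 22587662 counts (AZA) and 12292575 to 19645459 counts (untreated), and no library repeated another (chi-square over degrees of freedom 438 to 906 within groups).

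A hairpin was tested where 3 or more libraries had it above 0.5 CPM, with edgeR 4.0.16 (R 4.3.3), TMM normalization and treatment as the only term. Genes were tested in the same way on counts summed over their hairpins, without a filter, over all 912 genes. Benjamini-Hochberg adjustment ran over all hairpins or all genes tested, and the threshold was 0.05. Each fold change is AZA divided by untreated. The scripts were tested on simulated data. P-values of this unpaired fit rest on the spread between the 3 libraries within each group. It does not use that 1 culture gave a library to each arm.

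The numbers pair the libraries, since 1 culture gave both arms. After subtracting group means, log2 CPM (prior count 2) had correlations across hairpins of 0.129, 0.116 and 0.144 for equal numbers and of -0.102 to -0.0223 for unequal ones. A fit with the number as a block was run beside the unpaired one.

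Alternatives were the Wald test of DESeq2 1.42.0 and its size factors, library totals, other count filters, robust dispersions, edgeR's exact test and its likelihood-ratio test, limma 3.58.1 on the mean log2 CPM of a gene's hairpins, sums without the most abundant hairpin, the block and leaving out each library. Guide sequences come from the study's library table, of which a shortened copy was used, and their positions from an exact match to GENCODE release 44 transcripts on GRCh38.

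Named were all 14 genes, every hairpin of DDX3X and DDX6, for each other gene the hairpins with the smallest p and with the highest untreated mean, hairpins at 0 in a group, those under overlapping guides, and the 3 other pathway genes with the smallest p. DHX29.2008, DHX9.1127, DHX9.857, DHX36.372, DHX57.3489, DHX30.3440, DHX30.355, DDX19A.2373, FMR1.2648 and FMR1.1144 were added after their values were seen. Members and lists were chosen with earlier results of these data known.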

Additional observations from a re-analysis of the deposited data

How the results depend on the processing

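Of the 112 hairpins the edgeR exact test called 1, the likelihood-ratio test 1 and the DESeq2 Wald test 3, against 0 by the quasi-likelihood test, and over the pool they called 13, 16 and 135, against 5. All these calls include DHX9.3408, which passed the filter through its AZA libraries alone and could only be higher under AZA. Leaving out 1 library called none of the 112 and 1 to 5 over the pool. Of the 14 genes, library totals and the replicate block called 2 each, DDX6 and DDX3X, against 1. Leaving out 1 library called 0 to 2, with 0 for each AZA replicate, both genes without untreated replicate 1, DDX3X without untreated replicate 2 and DDX6 without untreated replicate 3. Over all genes it called 5 to 7 without an AZA library and 13 to 16 without an untreated one, against 11. The replicate block changed no other call of a member. Of the 14 genes, limma on mean log2 CPM called DDX3X and not DDX6. The number of positive hairpins was 55 to 66 over the alternatives run for it (59 in the report), and their share was 54.1% with overlapping guides counted once, against 52.7%.

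Some uncalled values changed sign, and the cause was not tested. For genes, limma on mean log2 CPM gave 0.03 for EIF4A1 and 0.69 for DHX29, and sums without the most abundant hairpin gave 0.04 for EIF4A2 and 0.03 for DHX29. Leaving out 1 library gave fold changes of the sum of -0.19 to 0.22 for EIF4A2, -0.06 to 0.40 for DDX1, -0.13 to 0.20 for DHX36 and -0.01 to 0.22 for DHX30. For single hairpins it gave -0.06 to 0.41 for DDX3X.3963, -0.72 to 1.24 for DDX6.3959 and -1.05 to 0.21 for EIF4A2.1851. Among hairpins under overlapping guides it gave -0.03 to 1.88 for DDX1.629, -0.83 to 0.67 for DDX1.2057, -0.54 to 0.15 for DDX19A.935, -0.65 to 1.08 for DDX19A.1250 (the guide entered as DDX19B.935 too), -0.11 to 1.09 for DDX19B.40, -0.20 to 1.33 for DDX19B.44 and -0.57 to 0.31 for DDX19B.620. Library totals gave 0.03 for DDX19A.935 and 0.10 for DDX19B.620, and the replicate block gave 0.16 for DDX19A.1250 and 0.39 for DDX19B.620. In all, 11 of the 112 hairpins had another sign with the replicate block than without it, none of them against DDX6 or DDX3X. At these depths 3 counts stand for 0.133 to 0.244 CPM, and the sources of the spread between libraries were not tested.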
